A study of Mus musculus with 16 samples.

Results

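The genes described here are 10 transcripts that are used as markers of immature olfactory sensory neurons: Gng8, Gap43, Marcksl1, Dpysl3, Dpysl5, Crmp1, Stmn2, Stmn4, Dbn1 and Ablim1. They were taken by their listed symbols, with the probe set of the highest mean over 16 arrays standing for each gene, and all 10 were measured among 19505 genes. The arrays (Affymetrix) held RNA of cells sorted from the olfactory mucosa of C57BL/6 S100a5-tauGFP mice of both sexes, 7 to 12 weeks old, in which a green fluorescent protein (GFP) reporter is tied to the gene S100a5. All mice carried the reporter, and all were kept singly for 40 h in chambers with clean air flowing at 3.1 L/min. From 26 h on, the 12 odor mice received pulses of an isoamyl acetate and whiskey lactone mixture, and the 12 vehicle mice pulses of filtered air, for 10 s every 20 min in either case. Cells of 3 mice were pooled before sorting, which gave 4 pools per treatment and, from each pool, a library titled GFP+ and a library titled GFP-. The 4 groups of 4 libraries are therefore odor titled GFP+, odor titled GFP-, vehicle titled GFP+ and vehicle titled GFP-, and libraries of the same treatment and number share their mice.

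Olfactory sensory neurons are replaced throughout life from basal progenitors. A newly formed neuron extends an axon toward the olfactory bulb, and in that stage it makes proteins of the growth cone, the moving tip of the axon, and proteins that keep actin filaments and microtubules in turnover. Gap43 is the textbook marker of this stage and is replaced by Omp, the olfactory marker protein, once the neuron matures. Gng8, a gamma subunit of heterotrimeric G proteins, is found in immature olfactory neurons, while Gng13 serves the mature ones. S100a5 is a calcium-binding protein whose level follows the activity of mature olfactory neurons, so the reporter marks neurons that were recently active.

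Some features of the libraries bear on every value below. Each of the 16 samples carries a cell type tag that contradicts its title as to the fraction; the groups here follow the titles, and every difference between fractions would change sign if the tags were right. S100a5 itself was lower in the libraries titled GFP+ of 7 of 8 pools. In odor mice the titled GFP+ mean was 15.27 ± 0.24 (SD, n = 4) and the titled GFP- mean 16.43 ± 0.27 (SD, n = 4). The exception was vehicle pool 3, whose library titled GFP+ held 16.37 and whose library titled GFP- held 14.99. On a scale set by all genes other than these 10, where 0 is the mean of the odor libraries titled GFP- and 100 the mean of those titled GFP+, the library of that pool titled GFP+ lay at 1.21 and the one titled GFP- at 90.2. The other vehicle libraries lay between 3.64 and 9.18 (titled GFP-) and between 99.85 and 114.5 (titled GFP+). No label was moved, and each result is given for all 16 arrays as titled and for the 14 arrays without that pool. All 4 activity genes (S100a5, Kirrel2, Pcp4l1 and Lrrc3b) were lower in the fraction titled GFP+ in both treatments and both array sets. On 14 arrays limma's test called 4 of 4 lower in odor mice (median -1.28) and 4 of 4 in vehicle mice (median -1.52). Of all 19505 genes, 895 and 647 were called lower. On 16 arrays 1 of 4 was called in odor mice and 0 in vehicle mice, beside 467 and 0 of all genes. Omp, the defining marker of the mature neurons, was between 18.44 and 18.68 in every library, so RNA of mature neurons was measured in all groups. The median of the 5222 negative-control probe sets was 5.46 and their 95th percentile 9.79.

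Values are log2 values as deposited, and since their upper end exceeds what a 16-bit scanner can give, differences are stated on that scale and not as folds. Gng8, Gap43, Dpysl3 and Ablim1 were higher in the fraction titled GFP+ of odor mice, by 4.64, 2.40, 4.05 and 2.65, in both sets of arrays; the calls on 16 arrays were lost with the pool as a block (adjusted p from 0.161 to 0.185), and those on 14 arrays were kept. Marcksl1 was higher by 1.13 and passed the test only on the 14 arrays. The list did not move as one: Stmn2, Dbn1, Dpysl5, Crmp1 and Stmn4 did not pass in either set, with differences from -0.04 to 0.51. The vehicle mice without pool 3 gave the same 4 leading genes. No member differed between odor and vehicle mice by the test. In sorted pools of this kind, fewer cells of a type and less RNA per cell cannot be told apart.

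Gng8, the gamma subunit, was higher in the library titled GFP+ of 7 of 8 pools. In odor mice its libraries titled GFP- held 5.46, 6.44, 6.09 and 5.74 in pools 1 to 4, and its libraries titled GFP+ held 10.33, 10.16, 10.99 and 10.79. In vehicle pools 1, 2 and 4 the libraries titled GFP- held 5.60, 6.29 and 5.55 and those titled GFP+ 10.12, 10.44 and 11.00. Vehicle pool 3 was the other way round, with 11.08 in the library titled GFP- and 5.75 in the one titled GFP+. Apart from that pool the fractions were far from overlapping, and every low library lay near the median of the negative controls, so the size of the difference is uncertain. The difference in odor mice was 4.64 with a standard error (SE) of 1.14 and an adjusted p of 0.0320 on 16 arrays, and with an SE of 0.26 and an adjusted p of 9.36e-09 on 14. Here and below, p-values are from limma's moderated test, adjusted by Benjamini-Hochberg over 19505 genes, with 0.05 as the threshold. The odor means do not depend on vehicle pool 3, but the fit shares 1 estimate of the spread over all groups, and that pool widens it.

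Gap43, a membrane-bound substrate of protein kinase C in growth cones, moved in the same direction over a smaller range. Its odor libraries titled GFP- held 7.69, 7.45, 7.91 and 8.002, and those titled GFP+ held 9.92, 9.61, 10.46 and 10.65. In vehicle pools 1, 2 and 4 the values were 8.76, 8.48 and 8.32 (titled GFP-) and 9.86, 10.93 and 10.65 (titled GFP+), and vehicle pool 3 held 10.73 and 8.14 in the same order. The fractions did not overlap within a treatment once that pool was left out. The low libraries stayed above the negative-control median but below the controls' 95th percentile of 9.79, as did the odor library titled GFP+ at 9.61. The odor difference was 2.40 (SE 0.56, adjusted p = 0.0290 on 16 arrays; SE 0.25, adjusted p = 6.3e-06 on 14).

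Marcksl1, an actin-regulating relative of the protein kinase C substrate Marcks, lay close to the negative controls in every group. Its odor libraries titled GFP- held 4.61, 5.25, 4.06 and 5.14, and those titled GFP+ held 6.22, 5.67, 5.56 and 6.15. The vehicle libraries held 5.16, 4.93 and 5.34 (titled GFP-) and 5.56, 5.93 and 5.60 (titled GFP+) in pools 1, 2 and 4, and 6.61 and 5.27 in pool 3. In odor mice the fractions did not overlap, but the highest value titled GFP- and the lowest titled GFP+ were close together. The odor difference of 1.13 had an adjusted p of 0.0532 on 16 arrays (SE 0.33) and of 0.00415 on 14 (SE 0.24).

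**Figure D1:**
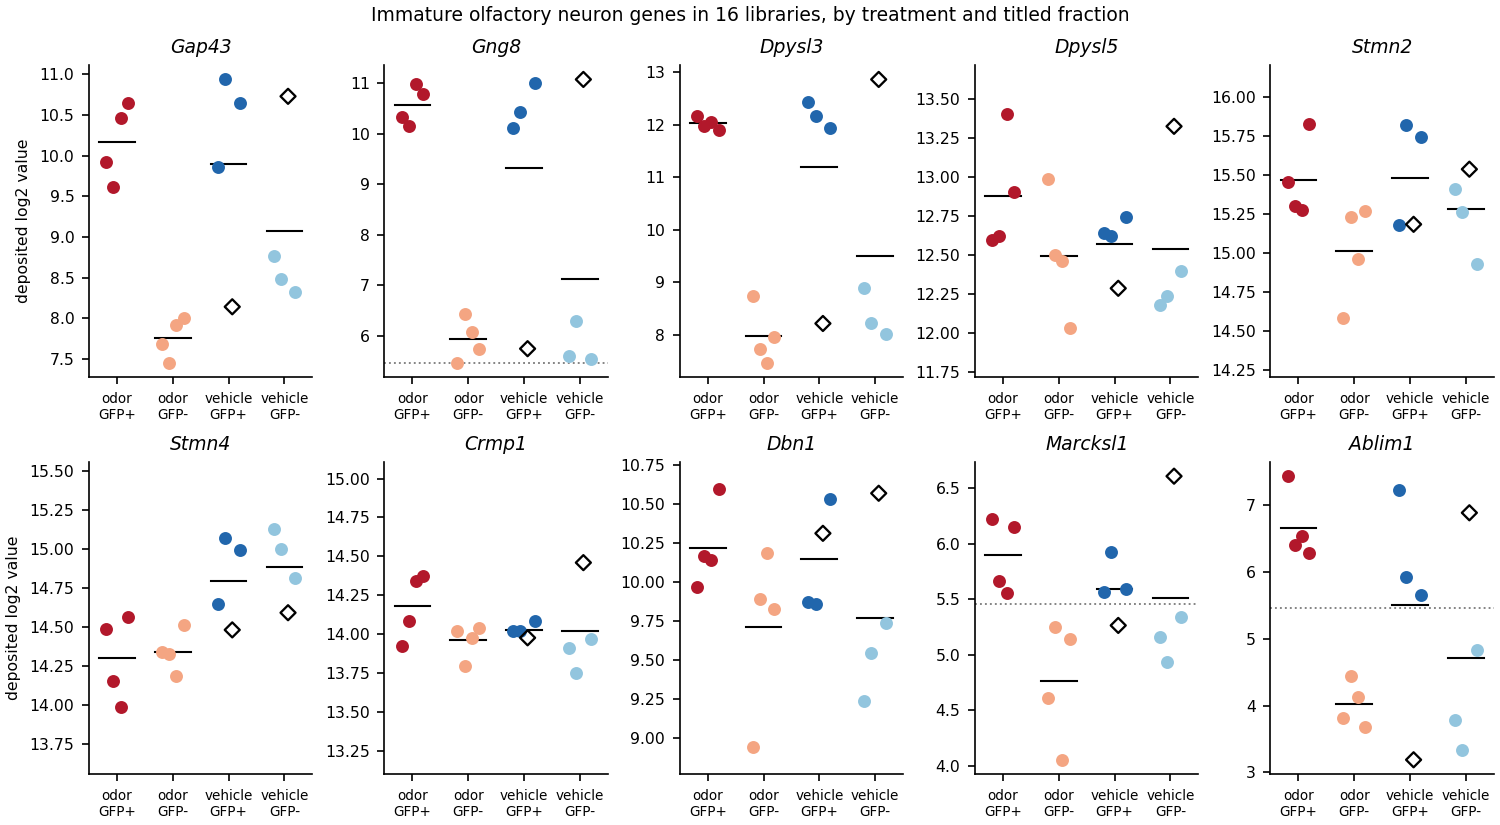
Deposited log2 values of the 10 genes in all 16 libraries, 1 panel per gene, by treatment and titled fraction. Filled points are libraries, open diamonds the libraries of vehicle pool 3, black bars group means over 4 libraries and the dotted line the negative-control median of 5.46; in Gng8, Gap43, Dpysl3 and Ablim1 the open diamonds lie with the opposite fraction, while the odor points of Stmn4 lie below its vehicle points other than those of pool 3.

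The collapsin response mediator proteins bind tubulin and relay guidance signals in growing axons, and the 3 family members here differed among themselves. Dpysl3 held 8.73, 7.73, 7.46 and 7.95 in odor pools 1 to 4 of the fraction titled GFP-, and 12.16, 11.97, 12.05 and 11.91 in the matching libraries titled GFP+. In vehicle mice it held 8.88, 8.22 and 8.01 (titled GFP-) and 12.43, 12.17 and 11.94 (titled GFP+) in pools 1, 2 and 4, against 12.86 and 8.21 in pool 3. Its 4 odor libraries titled GFP+ were the most uniform of its groups of 4 (SD 0.11), and no odor library of the other fraction came near them. The odor difference of 4.05 had an adjusted p of 0.0305 on 16 arrays (SE 0.97) and of 1.98e-08 on 14 (SE 0.25).

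Dpysl5 did not separate the fractions of odor mice. Its libraries titled GFP- held 12.99, 12.50, 12.46 and 12.03, and its libraries titled GFP+ held 12.60, 12.62, 13.40 and 12.90. The odor pools overlapped, with a difference of 0.38 (SE 0.26, adjusted p = 0.434 on 16 arrays; 0.276 on 14). In vehicle pools 1, 2 and 4 it held 12.18, 12.24 and 12.40 (titled GFP-) and 12.64, 12.62 and 12.74 (titled GFP+), and in pool 3 it held 13.33 and 12.29.

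Crmp1 varied little, from 13.75 to 14.46 over all 16 libraries. Its odor libraries held 14.02, 13.80, 13.98 and 14.04 (titled GFP-) and 13.93, 14.09, 14.34 and 14.37 (titled GFP+), and they overlapped. Its vehicle libraries held 13.91, 13.75 and 13.97 against 14.02, 14.02 and 14.09 in pools 1, 2 and 4, and 14.46 against 13.98 in pool 3. The odor difference was 0.22 with an adjusted p of 0.435 on 16 arrays and 0.352 on 14, and it became -0.13 on 14 arrays when each library was centred on its median.

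The stathmins bind tubulin dimers and favour microtubule disassembly. Stmn2 held 14.58, 15.23, 14.96 and 15.27 in odor pools 1 to 4 of the fraction titled GFP-, and 15.45, 15.30, 15.27 and 15.82 in the matching libraries titled GFP+. In vehicle mice it held 15.40, 15.26 and 14.93 against 15.18, 15.82 and 15.74 in pools 1, 2 and 4, and 15.53 against 15.18 in pool 3. The odor fractions touched without overlapping, and the vehicle fractions overlapped. The odor difference was 0.45 (SE 0.21, adjusted p = 0.214 on 16 arrays; 0.176 on 14), with 95% limits of 0.015 and 0.895 on 16 arrays before adjustment.

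Stmn4 did not follow the fractions. It held 14.34, 14.33, 14.19 and 14.52 in odor pools 1 to 4 of the fraction titled GFP-, and 14.49, 14.16, 13.99 and 14.57 in the matching libraries titled GFP+. Its vehicle libraries held 15.13, 15.00 and 14.82 against 14.65, 15.07 and 15.00 in pools 1, 2 and 4, and 14.59 against 14.48 in pool 3. The fraction difference in odor mice was -0.04 (95% limits -0.41 and 0.33 on 16 arrays). Over both fractions its odor libraries ran from 13.99 to 14.57 and its vehicle libraries from 14.48 to 15.13, so the treatments overlapped through vehicle pool 3.

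Of the actin-binding members, Dbn1 encodes drebrin, which stabilises actin filaments where microtubules enter the growth cone, and Ablim1 encodes a LIM domain protein that couples actin to other proteins. Dbn1 held 8.94, 9.89, 10.18 and 9.82 in odor pools 1 to 4 of the fraction titled GFP-, and 9.97, 10.16, 10.14 and 10.60 in the matching libraries titled GFP+, so that pool 3 lay within the other fraction. Its vehicle libraries held 9.24, 9.54 and 9.74 against 9.87, 9.86 and 10.53 in pools 1, 2 and 4, and 10.57 against 10.31 in pool 3. The odor difference was 0.51 (SE 0.29, adjusted p = 0.345 on 16 arrays; 0.230 on 14).

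Ablim1 held 3.82, 4.45, 4.12 and 3.68 in odor pools 1 to 4 of the fraction titled GFP-, and 7.44, 6.41, 6.54 and 6.29 in the matching libraries titled GFP+. In vehicle pools 1, 2 and 4 it held 3.78, 3.34 and 4.84 against 7.23, 5.93 and 5.66, and in pool 3 it held 6.89 against 3.19. The low libraries all lay below the negative-control median, and all 16 libraries lay below the controls' 95th percentile of 9.79. Its lower values may therefore not be measured levels, and the size of its difference is uncertain. The odor difference was 2.65 (SE 0.76, adjusted p = 0.0481 on 16 arrays; SE 0.37, adjusted p = 0.000103 on 14).

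On 16 arrays, 4 of the 10 genes passed in odor mice, all of them higher in the fraction titled GFP+, where 6.97% of all genes passed in either direction and 4.57% passed as higher. On 14 arrays 5 passed, against 13.2% and 8.59% of all genes. In odor mice the libraries of the fractions did not overlap for 6 of the 10 genes, the 5 above and Stmn2, and for 16.5% of all genes. The median difference of the 10 genes was 0.82, beside -0.08 over all genes tested. In the odor libraries titled GFP-, 4 of the 10 genes had a mean above the controls' 95th percentile, and in those titled GFP+ 8 did. On 16 arrays with the pool as a block, 0 of 10 passed (adjusted p = 0.161 for Gap43 and Dpysl3, 0.163 for Gng8 and 0.185 for Ablim1), and 0 of 10 passed when any 1 of the 8 odor libraries except the one titled GFP+ of pool 4 was left out (adjusted p of these 4 genes from 0.0602 to 0.141). Ablim1 was also lost without that library (0.0646), the vehicle libraries titled GFP- of pool 1 or 4 (0.0562 and 0.0596) or those titled GFP+ of pool 2 or 4 (0.0606 and 0.0621), and Marcksl1 passed without either library of vehicle pool 3 (0.0118 and 0.0395). On 14 arrays the same 5 genes passed with the pool block and without each library in turn.

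Centring each library on its median moved the median difference over all genes in odor mice from -0.08 to -0.43, and the share of called genes that were higher on 16 arrays from 65.6% to 17.8% (on 14 arrays from 65.2% to 13.3%). Under that centring the odor differences on 14 arrays were 4.29 for Gng8, 3.70 for Dpysl3, 2.30 for Ablim1, 2.05 for Gap43 and 0.78 for Marcksl1, and these 5 still passed. The other members then lay between -0.39 (Stmn4) and 0.16 (Dbn1). Centring moves all genes by the same amount, which is what turned the sign of the uncalled Crmp1 difference.

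In vehicle mice, the comparison asks whether the same genes separate the fractions without the odor. On all 16 arrays 0 of 10 genes passed limma's test and 0 had an unadjusted p under 0.05; of all genes, 0% passed, 0% as higher, and 1912 had an unadjusted p under 0.05. The differences were 2.20 for Gng8, 1.69 for Dpysl3, 0.82 for Gap43 and 0.79 for Ablim1, as means over 3 pools with a difference of one sign and vehicle pool 3 with the other. When only the pool 3 library titled GFP+ was left out, Gng8 alone of the 10 passed (3.39, adjusted p = 0.0487), and 0 of 10 passed when only its partner was left out.

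On the 14 arrays, Gng8, Dpysl3, Ablim1 and Gap43 were higher in the vehicle fraction titled GFP+. The differences were 4.71 for Gng8 (SE 0.30, adjusted p = 7.26e-08), 3.81 for Dpysl3 (SE 0.28, 2.36e-07), 2.29 for Ablim1 (SE 0.43, 0.00163) and 1.96 for Gap43 (SE 0.29, 0.000235). These 4 of 10 compare with 11.2% of all genes called and 7.86% called as higher. Marcksl1 differed by 0.55 (95% limits -0.05 and 1.15, adjusted p = 0.268), and the remaining differences were 0.58 for Dbn1, 0.39 for Dpysl5, 0.38 for Stmn2, 0.17 for Crmp1 (-0.19 after centring) and -0.08 for Stmn4. With 3 libraries against 3, the fractions did not overlap for 8 of the 10 genes, all except Stmn2 and Stmn4, and for 27.6% of all genes. Centring moved the median over all genes from -0.10 to -0.46 and the share of called genes that were higher from 70.3% to 15.8%, and the 4 genes still passed.

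Each pool gave a difference between its own fractions, which is free of differences between pools of mice. Over the 7 pools without vehicle pool 3, Gng8 differed by 3.73 to 5.45 (mean 4.67, SD 0.58), Dpysl3 by 3.43 to 4.59 (mean 3.95, SD 0.39), Gap43 by 1.09 to 2.64 (mean 2.21, SD 0.52) and Ablim1 by 0.83 to 3.62 (mean 2.50, SD 0.94). Marcksl1 differed by 0.26 to 1.61 (mean 0.88, SD 0.55). These 5 genes were higher in the library titled GFP+ in 7 of 7 pools, Dpysl5, Stmn2, Crmp1 and Dbn1 in 6 of 7, and Stmn4 in 4 of 7. The lowest Gap43 difference was that of vehicle pool 1 and the lowest Ablim1 difference that of vehicle pool 4. In vehicle pool 3 the differences had the other sign and like size, at -5.33 for Gng8, -4.65 for Dpysl3, -3.70 for Ablim1, -2.59 for Gap43 and -1.34 for Marcksl1.

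**Figure D2:**
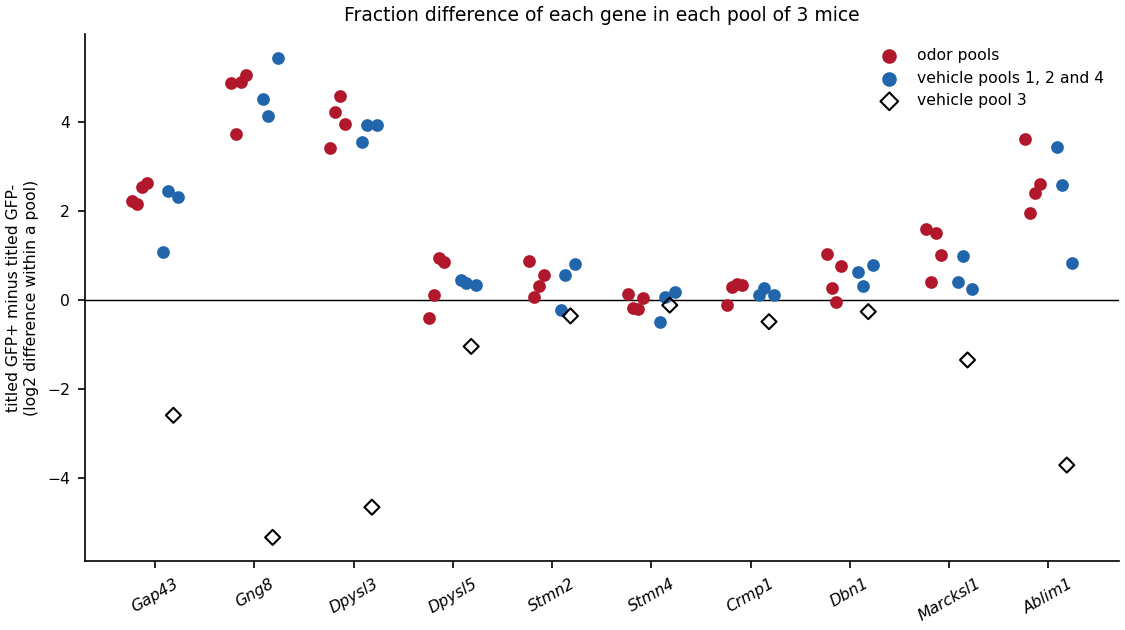
Difference between the libraries titled GFP+ and GFP- of each pool (deposited log2 units) for the 10 genes. Red points are the 4 odor pools, blue points vehicle pools 1, 2 and 4 and open diamonds vehicle pool 3; Gng8 lies between 3.73 and 5.45 in the 7 other pools and at -5.33 in vehicle pool 3, while Stmn4 lies near 0 throughout.

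Upstream sequence was used for 6 of the 10 genes (that of Gap43, Dpysl3, Stmn2 and Stmn4 was not used here), and it is shown for a gene with a large difference between fractions (Gng8), one with a large difference and several annotated starts (Ablim1) and one with no called difference (Dpysl5). Each is the 250 bases before an annotated start in RefSeq (GRCm38.p6), and 4 motifs were searched on both strands. These were the E-box hexamers CAGCTG and CAGATG, bound by proneural basic helix-loop-helix factors, the homeodomain core TAATTA and the EBF palindrome TCCCNNGGGA; no run of bases can match both hexamers of the E-box at once, and capitals mark the matches. The Gng8 window, at chr7:16891536-16891785 on the plus strand, held none of the motifs (GC content 56.0%). The Ablim1 window at chr19:57197632-57197881 on the minus strand held 1 CAGCTG, and 3 of the 5 Ablim1 windows held 1 of the E-boxes. The Dpysl5 window, at chr5:30711314-30711563 on the plus strand, held 1 EBF match (GC content 62.8%).
Gng8: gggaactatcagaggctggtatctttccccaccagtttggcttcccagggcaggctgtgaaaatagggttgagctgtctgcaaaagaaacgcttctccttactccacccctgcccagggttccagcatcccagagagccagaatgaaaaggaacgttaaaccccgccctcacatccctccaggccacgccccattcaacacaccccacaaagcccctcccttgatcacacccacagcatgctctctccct
Ablim1: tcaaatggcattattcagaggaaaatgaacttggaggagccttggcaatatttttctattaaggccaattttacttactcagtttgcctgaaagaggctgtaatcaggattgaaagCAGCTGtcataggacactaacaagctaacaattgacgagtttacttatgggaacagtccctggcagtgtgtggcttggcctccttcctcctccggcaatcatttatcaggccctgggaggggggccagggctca
Dpysl5: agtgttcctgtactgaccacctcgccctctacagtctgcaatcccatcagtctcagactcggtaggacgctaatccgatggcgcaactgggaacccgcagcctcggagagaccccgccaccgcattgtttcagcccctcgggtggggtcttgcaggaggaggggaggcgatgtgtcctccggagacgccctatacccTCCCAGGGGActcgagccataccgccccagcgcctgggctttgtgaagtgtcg
Of 32851 windows of that length over all genes, 13% held CAGCTG, 14.4% CAGATG, 4.84% TAATTA and 0.779% the EBF palindrome. The windows of Crmp1, Dbn1 and Marcksl1 held none of the 4 motifs. The Ablim1 windows belong to different starts of the gene, and the array's probe set does not say which start was in use. A match is a run of letters and not a shown binding site.

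The odor comparison asks whether the immature neuron genes changed with stimulation within a titled fraction. No member passed in either fraction. In the fraction titled GFP+, limma called 0% of genes on 16 arrays and 0.0359% on 14, and 908 and 1518 of the 19505 genes had an unadjusted p under 0.05. In the fraction titled GFP- it called 0.0103% and 0.0256%, and 1241 and 1472 genes had one. At an unadjusted p under 0.05, the members were Stmn4 in the fraction titled GFP+ in both sets, Stmn4 and Gap43 in the fraction titled GFP- on 14 arrays, and those 2 with Marcksl1 on 16.

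Stmn4 had the smallest unadjusted p of the 10 genes in either fraction. On 14 arrays its mean in the fraction titled GFP+ was 14.30 in odor and 14.91 in vehicle mice, a difference of -0.60 (95% limits -0.97 and -0.23, adjusted p = 0.351). In the fraction titled GFP- the means were 14.34 and 14.98, a difference of -0.64 (limits -1.01 and -0.27, adjusted p = 0.333). The odor libraries did not overlap the vehicle libraries in either fraction, but the share of all genes for which this held was not counted. On 16 arrays the differences were -0.50 (adjusted p = 1) and -0.54 (adjusted p = 0.630), and the odor libraries titled GFP+ then overlapped with vehicle pool 3.

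Gap43 ran from 7.45 to 8.002 in the odor libraries titled GFP- and from 8.32 to 10.73 in the vehicle libraries titled GFP-. The difference was -0.76 on 14 arrays (95% limits -1.35 and -0.17, adjusted p = 0.495) and -1.31 on 16 (adjusted p = 0.762). In the fraction titled GFP+ the Gap43 libraries overlapped and the difference was -0.32 on 14 arrays (limits -0.91 and 0.27). For the other members the 95% limits on 14 arrays included 0 in each fraction. They ran in the fraction titled GFP+ from -0.56 to 0.66 for Gng8, from -0.73 to 0.41 for Dpysl3 and from -0.46 to 1.25 for Ablim1, so differences within these limits remain possible.

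**Figure D3:**
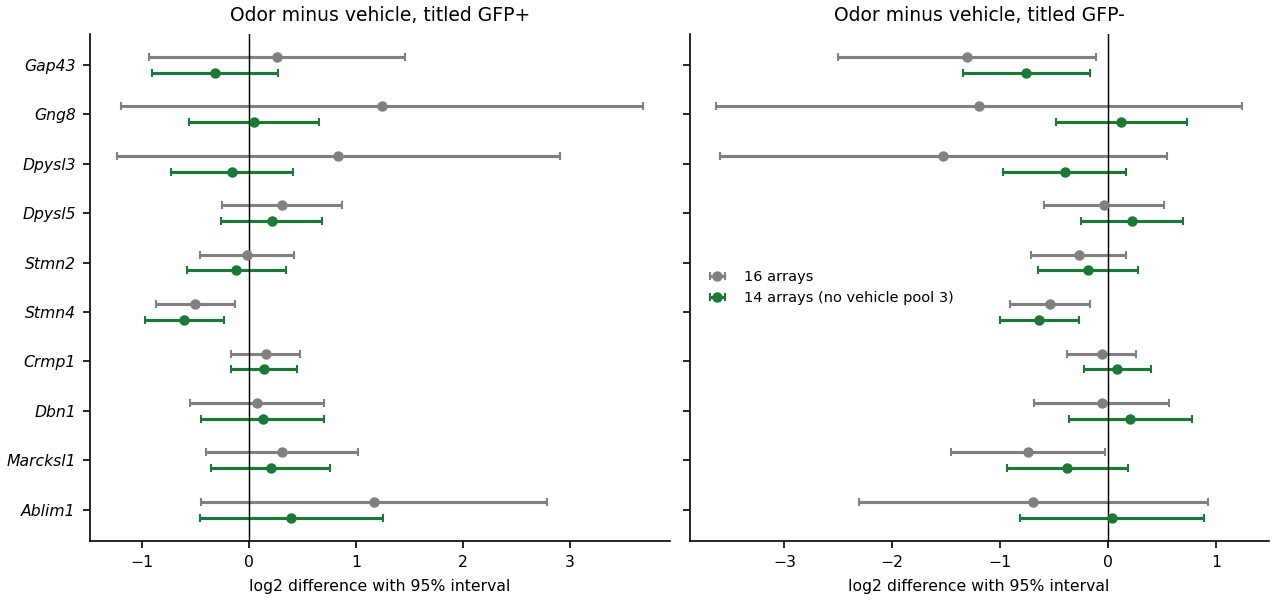
Odor minus vehicle differences (deposited log2 units) of the 10 genes in each titled fraction, with 95% intervals before adjustment. Grey points are the 16 arrays and green points the 14 arrays without vehicle pool 3. The green intervals of Stmn4 lie below 0 in both fractions, with adjusted p of 0.351 and 0.333 by limma's test. That of Gap43 lies below 0 in the fraction titled GFP- (adjusted p = 0.495). The grey intervals of Stmn4 in both fractions, and of Gap43 and Marcksl1 in that titled GFP-, also lie below 0, and no member passed. The grey intervals of Gng8 and Dpysl3 are the widest of the plot.

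The fraction differences of odor and vehicle mice were also compared directly. No member passed (adjusted p = 0.999 for all 10 genes on 16 arrays and 1 on 14), where 0.00513% of genes passed on 16 arrays and 0.0103% on 14. Marcksl1 alone had an unadjusted p under 0.05 on 16 arrays, and 0 of 10 members had one on 14, beside 581 and 523 of all 19505 genes. On 14 arrays the difference of differences was -0.07 for Gng8 (95% limits -0.93 and 0.79), 0.25 for Dpysl3 (-0.56 and 1.05), 0.44 for Gap43 (-0.39 and 1.27), 0.36 for Ablim1 (-0.84 and 1.57) and 0.58 for Marcksl1 (-0.21 and 1.37). The call of Marcksl1 in odor mice and not in vehicle mice is therefore not a shown difference between the treatments.

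Family relatives of the members were split as well. Of 8 measured relatives, 3 passed as higher in the GFP+ titled odor libraries in both sets of arrays, with a median difference of 0.15. They were Stmn1, the stathmin of dividing and young cells (2.30, adjusted p = 0.0286 on 16 arrays), Marcks (2.15, adjusted p = 0.0384) and Basp1, a growth cone protein like Gap43 (1.00, adjusted p = 0.0286). The Basp1 mean in the odor libraries titled GFP- (4.69) lay below the negative-control median. Stmn3 (0.08), Dpysl2 (-0.19), Dpysl4 (0.22), Dbnl (0.01) and Ablim3 (-0.05) did not pass. In vehicle mice on 14 arrays Stmn1 (1.80) and Marcks (2.10) passed, and Basp1 did not (0.65, adjusted p = 0.0855). Within the stathmin family the fractions thus separated for Stmn1 and for neither Stmn2, Stmn3 nor Stmn4 by the test.

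Of the 11 other G protein gamma subunits, 2 were called higher in the GFP+ titled odor fraction on 16 arrays, Gng2 (3.63, adjusted p = 0.0286) and Gng3 (1.30, adjusted p = 0.0305), and 5 on 14 arrays, with Gng4 (0.78), Gng5 (0.74) and Gng12 (1.37) added. On 14 arrays of vehicle mice 3 passed, namely Gng2 (3.16), Gng5 (0.95) and Gng12 (1.80). Gng13, the subunit of the mature neuron, differed by -0.22 (adjusted p = 0.671 on 16 arrays). The Gng2 mean in the odor libraries titled GFP- was 5.41, below the negative-control median, which leaves the size of its difference uncertain. The median over the list was 0.47 in odor mice.

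Among 18 other genes of young neurons, 4 passed as higher in the GFP+ titled odor libraries in both sets. They were Cxcr4, a chemokine receptor (4.03, adjusted p = 0.0336 on 16 arrays), Sox11, a transcription factor of newborn neurons (2.84, 0.0448), Tubb2b (2.32, 0.0296) and Tubb2a (1.46, 0.0463), which are beta tubulins. Ncam1, an adhesion molecule of all olfactory neurons, was lower on 16 arrays (-0.40, adjusted p = 0.0488) and missed the threshold on 14 (0.0513). Dcx, a microtubule protein of migrating and young neurons, differed by -0.31 (adjusted p = 0.239), and Tubb3, the neuronal beta tubulin, by 0.05. The median over the 18 genes was 0.04. The same 4 genes passed in vehicle mice on 14 arrays.

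Genes of the progenitors that precede the immature neuron were higher in larger number. Of 12 measured, 10 were higher in odor mice on 16 arrays, 11 on 14, and 8 in vehicle mice on 14 arrays (11 with the pool block). Examples in odor mice are Nhlh1 (5.62, adjusted p = 0.0286 on 16 arrays), a basic helix-loop-helix factor of late progenitors, Tex15 (3.95, 0.0286), Insm1 (1.69, 0.0286), a zinc finger factor of neurogenic progenitors, and Hes6 (1.36, 0.0286). The list's median was 1.99. In the odor libraries titled GFP-, 9 of the 12 genes had a mean below the negative-control median, among them Nhlh1 (4.68) and Insm1 (4.47), and in those titled GFP+ 1 of 12 had a mean above the controls' 95th percentile, so the sizes of these differences are uncertain. Of 13 genes of mature neurons, 0 were higher and 1 was lower on 16 arrays, the calcium-activated chloride channel Ano2 (-0.51, adjusted p = 0.0389). On 14 arrays Umodl1 was lower as well (-0.38, adjusted p = 0.0466), and with the pool block Ano2 alone passed. Of these lists too, every call on 16 arrays was lost with the pool block.

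Marker genes of other cell types were higher in the same fraction as the called members, and their part in the members' differences was not tested. On 14 arrays of odor mice all 8 measured myeloid markers passed toward the fraction titled GFP+, with a median difference of 6.55, and the mean level of the list ran from 10.99 to 13.50 in those libraries and from 5.32 to 7.15 in the ones titled GFP-. All 5 microvillar markers were higher (median 3.29; list mean 8.41 to 9.92 against 5.49 to 6.00), as were 6 of 7 sustentacular (median 2.08; 9.94 to 11.43 against 7.67 to 8.96), 4 of 5 lymphoid, 2 of 3 Bowman gland and 1 of 4 fibroblast markers. Of the horizontal basal, ensheathing glia and endothelial markers, 0 of 5, 0 of 4 and 0 of 3 passed, and at an unadjusted p under 0.05 the counts were 0, 2 and 1. In both odor fractions all 5 horizontal basal and all 3 endothelial markers had means below the negative-control median. So did 2 (titled GFP+) and 3 (titled GFP-) of the 4 ensheathing glia markers. In these lists 0 markers had a mean above the controls' 95th percentile. That also held for the lymphoid list, of which 4 of 5 passed. Whether the low levels kept differences from being seen was not tested. In vehicle mice on 14 arrays 1 of the 4 ensheathing glia markers passed, Sox10 (1.28). In the odor libraries titled GFP-, 2 of the myeloid, 3 of the microvillar and 1 of the sustentacular markers had a mean below the negative-control median, and in those titled GFP+ 0 of these 20 markers did. On 16 arrays 7 of 8 myeloid, 5 of 5 microvillar and 3 of 7 sustentacular markers passed. In vehicle mice on 14 arrays 8 of 8, 5 of 5 and 5 of 7 passed. The list mean of the members themselves ran from 11.02 to 11.40 against 9.52 to 9.71 in odor mice, and that of the 13 mature neuron genes from 16.09 to 16.26 against 16.26 to 16.42.

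**Figure D4:**
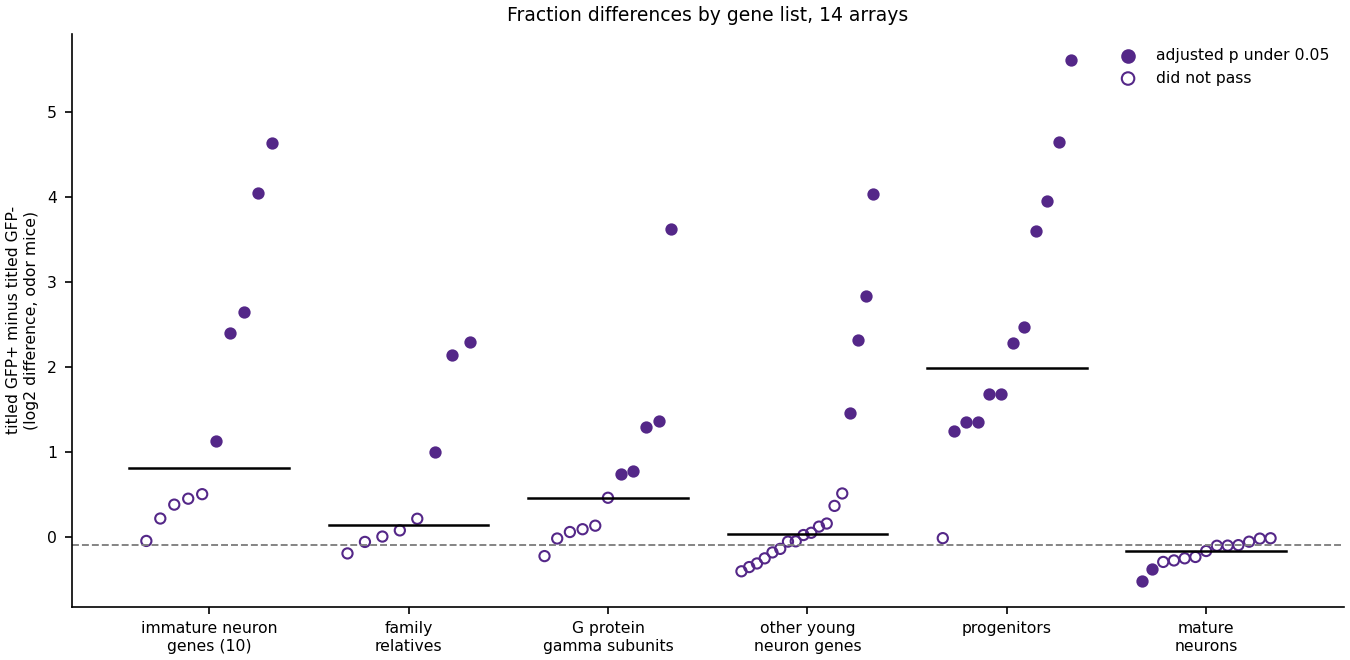
Difference between the odor fractions titled GFP+ and GFP- on 14 arrays (deposited log2 units) for each measured gene of the 6 neuronal lists. Filled points passed at an adjusted p under 0.05, open points did not, black bars are list medians and the dashed line is the median over all genes of -0.08; the members split into 5 filled points from 1.13 upward and 5 open ones between -0.04 and 0.51, and the progenitor list has a median of 1.99 with 9 of its 12 genes below the negative-control median in the libraries titled GFP-.

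The genes with the profiles nearest to Gap43 and Gng8 were found over the 14 arrays, by the mean absolute difference after each gene was centred on its own mean, among 18457 named genes. For Gap43 they were Olfr1349 (0.245), Stmn1 (0.277), Olfr1018 (0.283), Olfr330 (0.296) and Olfr875 (0.309). For Gng8 they were Olfr1039 (0.222), Olfr452 (0.273), Olfr825 (0.301), Olfr399 (0.304) and Olfr809 (0.321). Genes with Olfr symbols are odorant receptors. Of the members, Dpysl3 was the nearest to Gng8 (0.580), at rank 74, and the others ranked from 442 (Ablim1) to 7957 (Stmn4). The member nearest to Gap43 was Marcksl1 at rank 608, and Gng8 lay at rank 13555. The distance between Gap43 and Gng8 was 1.229 either way, and from Gng8 it gave Gap43 rank 527. Profiles were not scaled, so genes with fraction differences of unlike size lie apart even where they move together. Gap43 and Gng8 were both higher in the library titled GFP+ in each of the 7 pools. The odor fraction differences of the 5 genes nearest to Gap43 ran from 2.02 to 2.67 and those of the 5 nearest to Gng8 from 4.31 to 4.96, so the likeness rests mainly on the fraction difference over these 14 arrays of 7 pools.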

How the data were processed

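The authors deposited 1 table of log2 values. Per the submitters' processing notes, Affymetrix Expression Console made it; how probes were summarised, and on which genome build, is not given in the sources used here. Groups follow the sample titles. For each gene the probe set with the highest mean over 16 arrays was used. Tests used lmFit and eBayes (limma 3.58.1, R 4.3.3), two-sided, with 1 mean per group and no block, adjusted by Benjamini-Hochberg over 19505 genes at 0.05. P-values measure the spread between libraries of a group, each from a different pool, and on 16 arrays that spread includes vehicle pool 3. Both libraries of a pool were taken as independent, and precision is limited by the number of pools, 4 per treatment. The fits ran on 16 arrays and on 14 without vehicle pool 3, a set chosen with its values known. The scripts were tested on simulated data. The members, lists and tests were chosen with earlier results of these data known.

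Named were the 10 members, S100a5, Omp, up to 4 genes per neuronal list by smallest p in the odor fraction comparison on 16 arrays with any call counted among 5 or fewer, and the 5 nearest profiles of Gap43 and Gng8. The other relatives, Gng13, Dcx, Tubb3 and the activity genes other than S100a5 were named after their values were seen. Listed genes without a symbol of their own in the table were not analysed here.

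Libraries of the same treatment and number share mice, as the labels' pools of 3 mice imply. Their deviations from group means correlated at 0.127 to 0.253 in the odor pools and at -0.022 to 0.287 in vehicle pools 1, 2 and 4; with vehicle pool 3 in the group means, the 4 vehicle pools gave -0.75 to -0.064. The pool was a fixed block for comparisons of fractions and a random block (consensus correlation 0.131 on 14 arrays and 0.0134 on 16) for odor against vehicle. Other alternatives were centring, a filter on dim genes, eBayes with trend and robust settings, averaged probe sets and leaving out each library.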

Additional observations from a re-analysis of the deposited data

Results flagged for a closer look

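Within groups of 4 libraries, 3 of 40 member groups had a library far from the other 3 by Dixon's test at 95%, where chance alone flags about 5% of groups. All 3 are from vehicle pool 3. Gng8 was 5.75 in vehicle replicate 3 titled GFP+, below the other 3 libraries of its group, and 11.08 in vehicle replicate 3 titled GFP-, above the others. Dpysl3 was 8.21 in vehicle replicate 3 titled GFP+, below the others.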

How the results depend on the processing

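On 14 arrays no member gained or lost a call under any alternative that kept it in the test. The filter on dim genes dropped Marcksl1 and Ablim1 (11893 genes tested), leaving 3 members called in odor mice against 5. Leaving out 1 library kept 5 members in odor mice and 4 in vehicle mice, with 2043 to 2609 genes called (2570 with all 14 arrays) and 1644 to 2267 (2180). On 16 arrays the odor comparison called 1359 genes and 4 members. With the replicate block of pools it called 2 genes and 0 members, with trend and robust eBayes 896 and 2 (Gng8 at 0.0538 and Ablim1 at 0.0713 were lost), and without vehicle pool 3 2570 and 5. Leaving out 1 library gave 2 to 2184 genes and 0 to 5 members. In vehicle mice on 16 arrays 0 genes and 0 members became 2180 and 4 without vehicle pool 3, and 0 to 1163 genes and 0 to 1 members without 1 library.

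Centring called 5741 genes in odor mice on 16 arrays, 10078 on 14, and 8397 in vehicle mice on 14, since it shifts all genes. For odor against vehicle, leaving out pool 3 changed the count from 0 to 7 genes (titled GFP+) and from 2 to 5 (titled GFP-), and the filter on dim genes gave 13 against 7 (titled GFP+, 14 arrays). Without 1 library the counts ran from 0 to 3 and 1 to 5 on 16 arrays and from 0 to 10 and 1 to 6 on 14. For the difference of fraction differences the replicate block gave 0 genes against 1 on 16 arrays and 1 against 2 on 14, leaving out pool 3 gave 2, and leaving out 1 library gave 0 to 2 and 1 to 3. No member was called in these comparisons under any setting. Other than by construction, the causes of these changes were not tested. No depth exists for arrays, and Marcksl1 and Ablim1 lie near the negative controls.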
